A study of Trichoderma atroviride with 42 samples.

Results

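The genes described here are the 63 genes of the filamentous fungus Trichoderma atroviride that have the word FAD in their product text. They were chosen from the authors' deposited table for 30 min after injury, from which the product texts used here were taken. That table lists 3323 genes, 2865 of them with a text, and 65 of those texts hold FAD as a word. The rule leaves out Tatro_000291-T1 and Tatro_000356-T1, as well as any text with the word berberine, which none of the 65 held. The 63 genes were measured among 11786 genes in all.

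FAD, flavin adenine dinucleotide, is a cofactor that enzymes bind tightly and use to take up electrons from one substrate and pass them to another. Flavoenzymes of fungi include monooxygenases that add oxygen to small molecules, oxidases that give off hydrogen peroxide, reductases that hand electrons from NADPH to cytochromes or iron, and enzymes of amino acid, fatty acid and secondary metabolite turnover. In filamentous fungi, NADPH oxidases, which carry FAD, are known as a source of reactive oxygen after wounding.

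The 13 product texts among the members name protein domains, not single enzymes. The commonest were an FAD/NAD(P)-binding domain (22 genes) and an FAD-binding domain (10 genes). A further 6 genes had a CO dehydrogenase flavoprotein-like domain, which occurs in oxidases of the vanillyl alcohol oxidase type, and 5 had the text FAD dependent oxidoreductase, a fold known from D-amino acid oxidase. There were 3 genes each with a ferredoxin reductase-type FAD-binding domain, an FAD-binding type 1 domain and a dimerisation domain of FAD/NAD-linked reductases, and 2 each with the FAD-binding 8 domain of ferric reductases and with an FAD-linked oxidoreductase-like fold. An FAD linked oxidase and an FAD-dependent oxidoreductase 2 were single genes. The last 5 genes go against the name FAD-dependent oxidoreductase. The 2 with a THIF-type NAD/FAD binding fold and the 3 with a DHS-like NAD/FAD-binding domain carry folds that are also known from ubiquitin-activating enzymes and from sirtuins and deoxyhypusine synthase. The set is therefore called here by its rule, the FAD-text genes.

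The fungus was the wild type, kept in darkness for 36 h at 27 °C on potato dextrose agar covered with cellophane. In the Dm groups larvae of Drosophila melanogaster grazed on the mycelium for 10 min, and in the Of groups the collembola Orthonychiurus folsomi, a soil arthropod, did so. In the MI groups the mycelium was cut all over with a scalpel. Sampling took place at 4 times after each treatment, namely 30 and 90 min (early) and 4 and 8 h (late). The controls CT0 and CT8 were untreated plates opened for 2 min. CT0 is labelled time 0, while the series' design text places the early control at 30 min, and CT8 was taken at 8 h. Each of the 14 groups had 3 libraries. The design text calls them biological replicates and independent of each other, and says that 3 technical replicates went into each.

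Total counts ranged from 1152096 to 5398093 over the 42 libraries. All 63 members passed the filter on low counts, as did 9193 genes in all. Levels are given as CPM, counts divided by the library total after TMM scaling and set to a common size. They are not corrected for gene length, so they compare a gene between groups and not one gene with another. In a bulk sample fewer cells with a transcript and less transcript per cell cannot be told apart.

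The members were chosen with the 30 min injury libraries, so their values there are a description. The authors' deposited table lists 46 of them as lower and 17 as higher after injury, while 50.9% of all its genes with a text are listed as lower. Its false discovery rates for the members run up to 0.004103286, that of Tatro_010862-T1 (DHS-like domain, log2 fold change -0.54), and the smallest was that of Tatro_000474-T1 (FAD-binding domain, log2 fold change 1.76). Genes outside that table have no product text here, so those just past its limit are not known. The authors' log2 fold changes reached -2.90 for Tatro_011947-T1 and 2.89 for Tatro_006746-T1. In the fit made here 41 members lay lower and 16 higher in MI_30min than in CT0 at the threshold used below, against 93.9% of the genes with a text, and nothing is read from this count. Of the 14 groups, MI_30min had the lowest mean of 27 members and the highest mean of 14.

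Several members peaked sharply in MI_30min, and are named here after their values were seen. Tatro_006746-T1 (FAD-binding domain) had 46.1, 35.3 and 25.6 CPM in MI_30min, against 5.18, 8.64 and 4.94 CPM in CT0. Tatro_005981-T1 (FAD/NAD(P)-binding domain) had 56.8, 115 and 57.7 CPM in MI_30min, against 20.5, 21.1 and 21.1 CPM in CT0. Every injured library was above every control library for both genes, which is a description only, since these libraries had a part in choosing the members. At 90 min after injury Tatro_006746-T1 stood at 5.55 ± 1.49 CPM and Tatro_005981-T1 at 15.4 ± 1.26 CPM (SD, n = 3). In Dm_30min Tatro_006746-T1 stood at 9.34 ± 2.49 CPM and Tatro_005981-T1 at 15.8 ± 3.60 CPM (SD, n = 3). The plot of all members by group shows that most members are lowest in the early larval and injury groups. The lowest group was MI_30min for 27 members, Dm_30min for 11, MI_90min for 6 and Dm_90min for 2. MI_30min had a part in choosing the members, so its share is a description. The O. folsomi and control groups lie closer together.

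**Figure D1:**
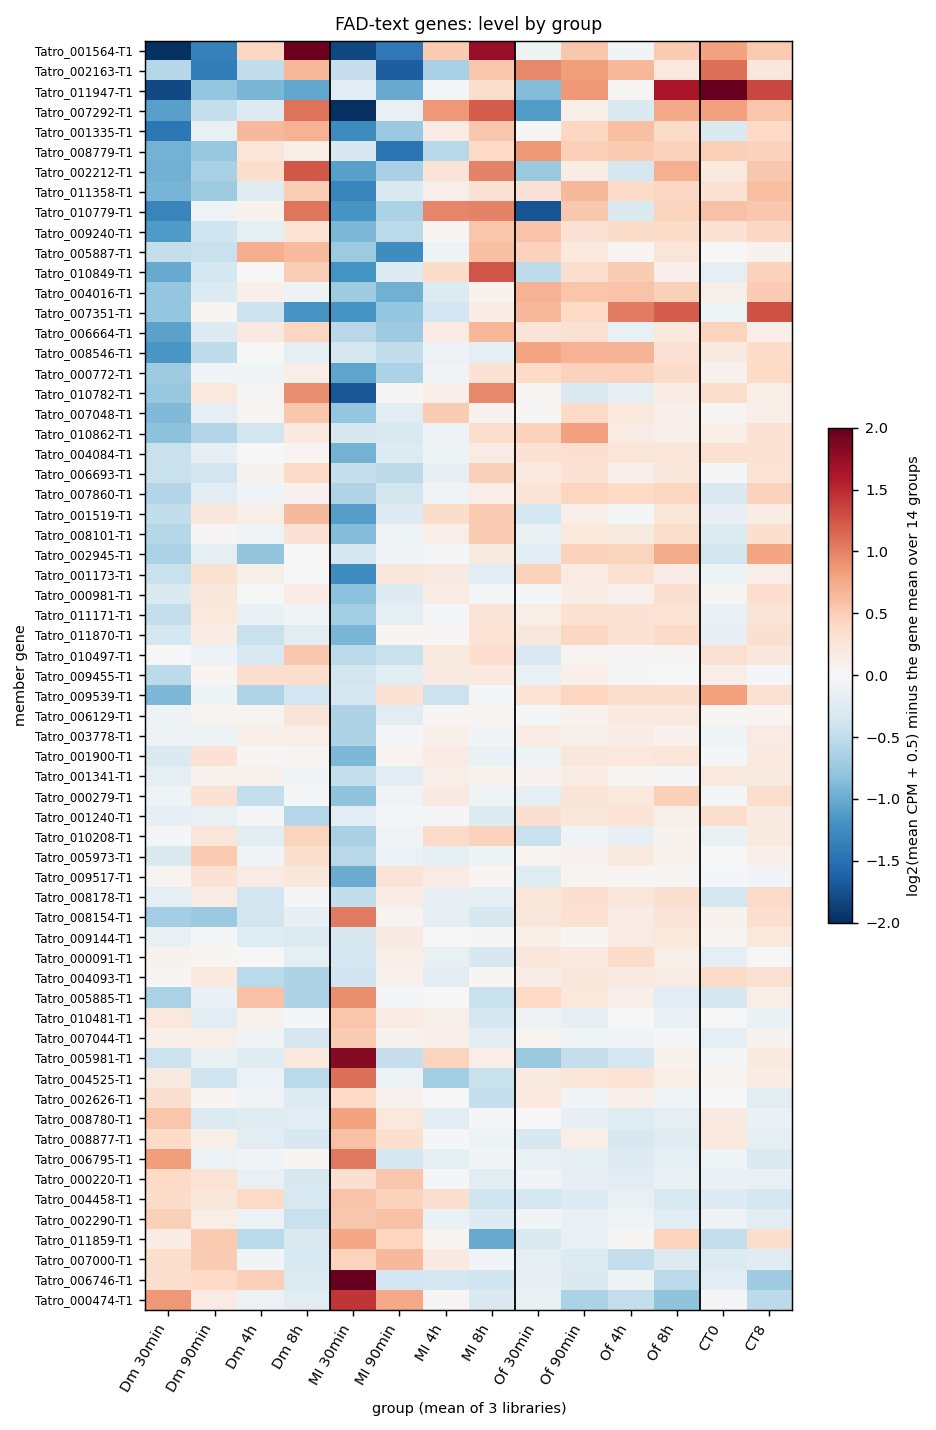
Level of each of the 63 FAD-text genes (rows) in each of the 14 groups (columns), as log2(mean CPM + 0.5) minus that gene's mean over the groups. Rows run by their mean in the 2 early larval and 2 early injury groups, and those groups hold most of the dark blue cells. MI_30min, among them, had a part in choosing the members. In the lowest rows MI_30min holds the darkest red cells, those of Tatro_006746-T1 and Tatro_000474-T1 among them.

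Summed over the 63 members, the level was 5822 ± 138 CPM in Dm_30min and 5253 ± 74.6 CPM in MI_30min, against 8230 ± 251 CPM in Of_30min and 7348 ± 478 CPM in CT0 (SD, n = 3 each). At 8 h it was 7650 ± 469 CPM in Dm_8h and 7817 ± 150 CPM in MI_8h, against 8794 ± 42.9 CPM in Of_8h and 8829 ± 173 CPM in CT8. Every library of Dm_30min and MI_30min lay below every library of the other groups. For MI_30min, which had a part in choosing the members, this is a description. A few abundant genes carry much of this sum, Tatro_004016-T1 alone with a mean of 1191 CPM over all libraries.

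The comparison of larvae with O. folsomi compares no control or injury level, so its differences do not use the values that chose the members. The spread behind its calls was estimated over all 14 groups, those libraries included. It sets one grazer against the other at the same time after grazing. The call rule was edgeR's quasi-likelihood test with Benjamini-Hochberg adjustment over all 9193 genes and a threshold of 0.05. At 30 min 29 members were lower and 8 higher in Dm_30min than in Of_30min, 58.7% of the 63. Among all genes 41.4% were called, and among the genes with a product text 58.4%, so the share of members called was that of the text genes as a whole. The direction leaned down: 46.0% of members were called lower, against 28.5% of text genes and 21.1% of all genes. Called higher were 12.7% of members, 29.9% of text genes and 20.3% of all genes. With libraries scaled by their totals instead, 12 members were higher and 24 lower, and the median of all genes moved by 0.113. The median log2 fold change was -0.37 over the members, 0.02 over the text genes and 0.01 over all genes.

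That lean was set beside the direction listed in the authors' injury table. Of the 46 members listed as lower after injury, 27 were lower and 0 higher in Dm_30min than in Of_30min, and 52.0% of all text genes listed as lower were called lower. Of the 17 members listed as higher, 8 were higher and 2 lower, and 56.5% of text genes listed as higher were called higher. This split was chosen after the values were seen and uses the table that chose the members, so it is a description. The members were called about as often as other genes with a text. More of them were listed as lower, 73% against 50.9% of genes with a text. Whether the listed direction accounts for the lean was not tested.

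Fewer members were called between larvae and O. folsomi at later times. At 90 min 22 members were lower and 6 higher in Dm_90min than in Of_90min (34.4% of all genes and 46.3% of text genes called). At 4 h 19 were lower and 5 higher in Dm_4h than in Of_4h (26.2% and 30.5%), and at 8 h 16 were lower and 5 higher in Dm_8h than in Of_8h (22.0% and 23.9%). Called higher were 24.2% of text genes at 90 min, 13.2% at 4 h and 10.3% at 8 h, and called lower were 22.1%, 17.3% and 13.7%. Among all genes 17.3%, 13.4% and 10.7% were called higher and 17.1%, 12.8% and 11.3% lower. The 21 calls at 8 h were 8 in a fit of only Dm_8h and Of_8h and 11 without Dm_8h replicate 2. The median over the members was -0.19, -0.17 and -0.07 on the log2 scale at these 3 times. Changes of at least 2-fold among the called members numbered 16 at 30 min, 8 at 90 min and 3 each at 4 h and 8 h.

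**Figure D2:**
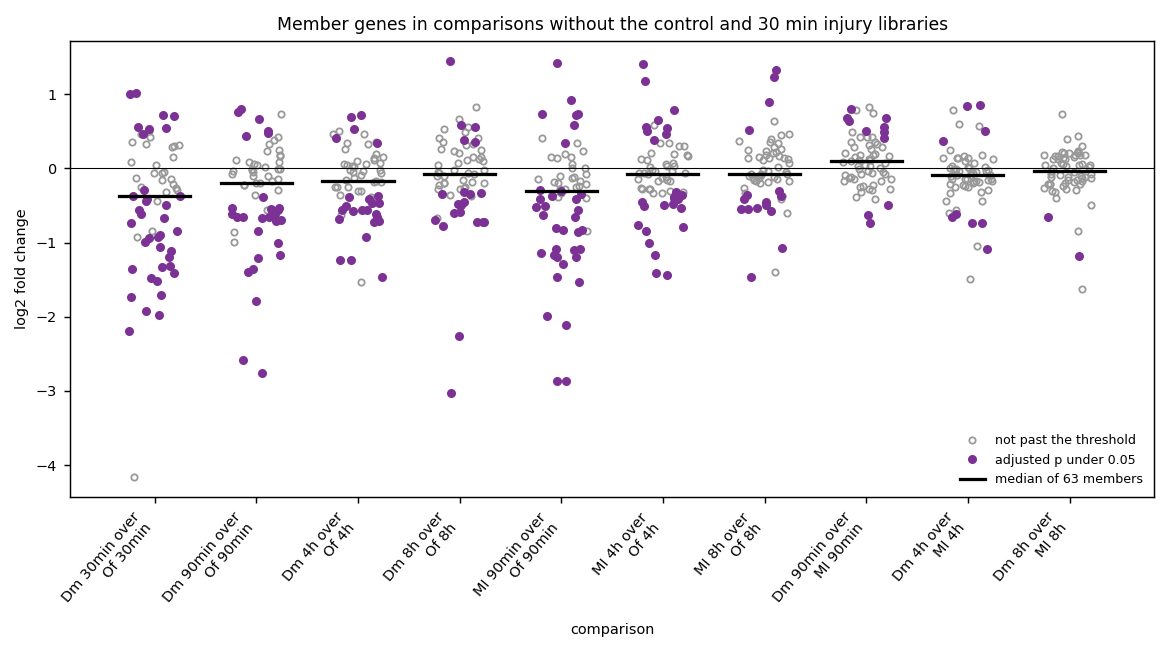
Log2 fold change of each of the 63 members (points) in the 10 comparisons between groups other than the controls and MI_30min, with filled points for those at an adjusted p under 0.05 and a line at the median of the members. The median lies at -0.37 for larvae over O. folsomi at 30 min and at -0.07 at 8 h. The lowest open point at 30 min is Tatro_011947-T1, which had no counts in Dm_30min, so its fitted value is no bound.

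Lower at both 30 and 90 min were 19 members, 65.5% of those at 30 min and 86.4% of those at 90 min. Over the text genes these shares were 61.1% and 79.0%, and over all genes 59.6% and 73.6%. Lower at both 4 h and 8 h were 14 members, 73.7% of those at 4 h and 87.5% of those at 8 h, against 54.5% and 68.9% over the text genes and 55.6% and 62.8% over all genes. At both 30 min and 8 h 9 were lower, 31.0% of those at 30 min and 56.2% of those at 8 h, against 32.1% and 66.8% over the text genes and 30.4% and 56.7% over all genes. No test was made of these shares. At all 4 times 4 members were lower, namely Tatro_004016-T1, Tatro_007860-T1, Tatro_008546-T1 and Tatro_009539-T1, and 26 were lower at none. Higher at 3 times were Tatro_000474-T1, Tatro_004458-T1 and Tatro_007000-T1, and none was higher at all 4.

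Whether the difference itself changed with time was tested as the larval minus O. folsomi difference at 30 min minus that at 8 h. Of the 63 members, 26 passed (20 with a more negative difference at 30 min, 6 with a more positive one), against 21.9% of all genes and 34.3% of text genes. The largest shift among the members was in Tatro_001564-T1.

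**Figure D3:**
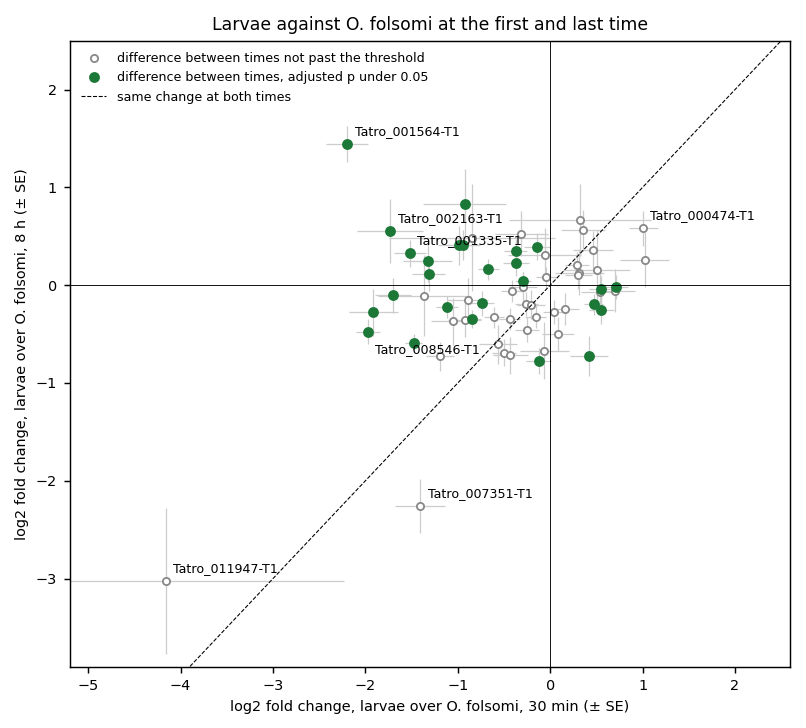
Log2 fold change of each member in larvae over O. folsomi at 30 min (x axis) and at 8 h (y axis), with standard errors and a dashed line where both are equal. Tatro_011947-T1, at the lower left, had no counts in Dm_30min and its fitted value is no bound. Filled points are the 26 members whose difference changed between the times. Tatro_001564-T1 lies at -2.20 and 1.44, and Tatro_007351-T1 stays low at both times.

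Tatro_001564-T1, the FAD/NAD(P)-binding gene with the largest swing, was low early and high at 8 h after both larvae and injury. It had 11.3, 20.9 and 12.3 CPM in Dm_30min, against 63.9, 72.1 and 66.0 CPM in Of_30min (log2 fold change -2.20 ± 0.23, SE, adjusted p = 8.922e-10). At 8 h it had 356, 281 and 214 CPM in Dm_8h, against 93.9, 107 and 111 CPM in Of_8h (1.44 ± 0.18, adjusted p = 1.288e-07). The libraries of the groups overlapped at neither time, and the difference between the times was -3.64 ± 0.29. In the injury groups it averaged 26.7 ± 3.44 CPM in MI_90min, against 105 ± 10.6 CPM in Of_90min (-1.99 ± 0.21), and 245 ± 14.2 CPM in MI_8h, against 104 ± 8.97 CPM in Of_8h (1.24 ± 0.18). Larvae and injury lay close at 90 min, 4 h and 8 h, and none of these 3 differences passed the test. At 4 h it stood at 96.9 ± 4.00 CPM in Dm_4h and 103 ± 24.2 CPM in MI_4h, near the 104 ± 1.96 CPM of CT8. Of_4h stood lower, at 70.1 ± 12.6 CPM. The call of MI_4h over Of_4h (0.56 ± 0.18) was lost without MI_4h replicate 3 (0.39), Of_4h replicate 1 (0.51) or Of_4h replicate 2 (0.47).

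Tatro_007351-T1, of the same text, was low after larvae both early and late. It had 57.1, 31.0 and 21.5 CPM in Dm_30min, against 106, 93.5 and 97.7 CPM in Of_30min. At 8 h it had 14.9, 18.1 and 49.4 CPM in Dm_8h, 48.8, 75.1 and 84.7 CPM in MI_8h and 154, 168 and 116 CPM in Of_8h. The larval libraries lay below all O. folsomi libraries at both times (-1.41 ± 0.27 and -2.26 ± 0.28, adjusted p = 8.37e-08 at 8 h). It was also lower in Dm_8h than in MI_8h (-1.19 ± 0.28, adjusted p = 0.01907), where the highest larval library passed the lowest injured one. That call was lost when any of 4 single libraries was left out, MI_8h replicate 2 (-1.12) or 3 (-1.02) or Dm_8h replicate 1 (-0.88) or 2 (-1.01), and the change was -2.11 without Dm_8h replicate 3. The gene differed between the controls as well, with 146, 143 and 166 CPM in CT8 and 53.5, 53.8 and 69.9 CPM in CT0 (1.34 ± 0.26).

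Tatro_004016-T1, an FAD/NAD(P)-binding gene and the one with the most counts of the set, was lower after larvae than after O. folsomi at every time. It had 616, 714 and 634 CPM in Dm_30min, against 1747, 1862 and 1852 CPM in Of_30min (-1.48 ± 0.09). At 90 min it had 568, 579 and 568 CPM in MI_90min, against 1688, 1594 and 1668 CPM in Of_90min (-1.53 ± 0.09, adjusted p = 3.349e-15). The groups did not overlap in either comparison. It stood higher in Dm_90min, at 923 ± 127 CPM, than in MI_90min, at 572 ± 5.94 CPM (0.69 ± 0.09, adjusted p = 5.837e-06). At 8 h it stood at 1041 ± 90.5 CPM in Dm_8h and 1179.7 ± 43.4 CPM in MI_8h, still below the 1564 ± 62.9 CPM of Of_8h (-0.59 ± 0.09 and -0.41 ± 0.09). It was higher in Of_30min and Of_90min than in CT0 (0.59 ± 0.09 and 0.45 ± 0.09).

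Among the less abundant FAD/NAD(P)-binding genes, Tatro_002163-T1 was scarce early. It had 1.30, 1.02 and 2.55 CPM in Dm_90min and 1.17, 1.44 and 1.22 CPM in MI_90min, against 9.22, 9.82 and 9.04 CPM in Of_90min. The log2 fold changes were -2.76 ± 0.44 after larvae and -2.87 ± 0.42 after injury, and the groups did not overlap. At 30 min the larval libraries had 1.81, 2.64 and 5.25 CPM, against 9.46, 9.61 and 11.8 CPM in Of_30min (-1.73 ± 0.36). Tatro_011947-T1, also of this text and named after its values were seen, had no counts in any Dm_30min library. With a floor of 3 counts over the group, its level there was at least 38.4-fold lower than the mean of CT0 (9.32, 3.84 and 13.5 CPM). The 3.84 CPM rest on 4 counts. Against the mean of CT8 it was at least 16.8-fold lower. Control libraries had a part in choosing the members, so both folds are a description. The gene was also scarce in Dm_90min (0.53 CPM), Dm_4h (0.43 CPM), Dm_8h (0.35 CPM) and MI_90min (0.37 CPM). Of_30min, with 0, 0.37 and 1.01 CPM, was itself near that floor, so no fold is given.

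Tatro_002945-T1, of the same text, was lower in larval than in O. folsomi libraries at 90 min (-0.65 ± 0.19), 4 h and 8 h (-0.72 ± 0.19). It had 184, 162 and 156 CPM in Dm_4h, 308, 286 and 245 CPM in MI_4h and 346, 381 and 454 CPM in Of_4h. Larval libraries lay below both other groups, by -1.24 ± 0.19 against O. folsomi and -0.74 ± 0.19 against injury. The call against injury was lost without MI_4h replicate 1 (-0.67) or Dm_4h replicate 3 (-0.69). Tatro_004093-T1 was called lower after larvae than after O. folsomi at 4 h (-0.73 ± 0.13) and 8 h only. It had 170, 220 and 296 CPM in Dm_8h, 322, 369 and 391 CPM in MI_8h and 392, 394 and 394 CPM in Of_8h. It was lower in larval libraries by -0.77 ± 0.13 against O. folsomi (adjusted p = 4.283e-05) and by -0.65 ± 0.13 against injury, the second lost without MI_8h replicate 3 (-0.59) or Dm_8h replicate 1 (-0.48). Tatro_007351-T1 and Tatro_004093-T1 were the 2 members of 63 called between Dm_8h and MI_8h, with 1.51% of all genes called.

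Over the 22 FAD/NAD(P)-binding genes together, 10 were lower and 2 higher at 30 min after larvae than after O. folsomi, with a median log2 change of -0.39. These 12 of 22 are a share near the 58.4% of text genes called. At 8 h 8 were lower and 2 higher (23.9% of text genes called), with a median of -0.25. The 2 higher ones at 30 min were Tatro_006795-T1, with 18.5, 14.4 and 15.2 CPM in Dm_30min and 7.89, 7.02 and 8.75 CPM in Of_30min (1.02 ± 0.27), and Tatro_002290-T1 (0.55 ± 0.13). Tatro_006795-T1 was brief: at 90 min it stood at 8.10 ± 2.63 CPM in Dm_90min and 7.75 ± 1.41 CPM in Of_90min (SD, n = 3).

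Tatro_008546-T1 has the FAD-linked oxidoreductase-like fold, shared by proline dehydrogenase and methylenetetrahydrofolate reductase. It had 56.7, 78.9 and 74.9 CPM in Dm_30min, against 260, 281 and 281 CPM in Of_30min, and every larval library was far below every O. folsomi one (-1.97 ± 0.13, adjusted p = 2.377e-14). It was lower by 1.20 ± 0.13 at 90 min in both Dm_90min and MI_90min than in Of_90min. At 8 h the levels were 138 ± 22.0 CPM in Dm_8h and 138 ± 16.0 CPM in MI_8h, against 194 ± 6.31 CPM in Of_8h (-0.48 ± 0.13 and -0.49 ± 0.12). In Of_30min the gene was above CT0, at 274 ± 12 CPM against 180 ± 17.3 CPM (0.60 ± 0.13, not called when libraries were scaled by their totals, 0.44). Its partner in text, Tatro_010782-T1, had 1.81, 4.08 and 1.58 CPM in Dm_30min and 3.94, 5.91 and 4.04 CPM in Of_30min, overlapping ranges that did not pass the test.

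The 6 genes with a CO dehydrogenase flavoprotein-like domain were mixed. At 30 min 3 were lower and 1 higher in larval than in O. folsomi libraries (58.4% of text genes called), and at 8 h none was called (23.9%). Tatro_008779-T1 had 2.41, 3.84 and 4.20 CPM in Dm_30min, against 16.6, 10.7 and 13.1 CPM in Of_30min (-1.92 ± 0.27, adjusted p = 3.375e-07). It had 2.54, 2.16 and 2.20 CPM in MI_90min, against 10.6, 9.51 and 10.4 CPM in Of_90min (-2.11 ± 0.29), with no overlap in either comparison. The gene with the next identifier, Tatro_008780-T1, carries a DHS-like domain and was higher at 30 min (0.54 ± 0.21), so the 2 moved in opposite directions.

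Tatro_005887-T1, another of these 6, separated larvae from injury. It had 17.6, 16.4 and 17.0 CPM in Dm_90min and 10.2, 8.99 and 9.76 CPM in MI_90min (0.81 ± 0.19, adjusted p = 0.004466). At 4 h it had 37.8, 36.5 and 42.8 CPM in Dm_4h, 19.0, 19.8 and 26.7 CPM in MI_4h and 22.8, 20.5 and 28.7 CPM in Of_4h. Larval libraries were above all others at 4 h (0.84 ± 0.15 over injury and 0.70 ± 0.15 over O. folsomi), after having been below O. folsomi at 30 min (-0.94 ± 0.17). By 8 h the larval and injured libraries overlapped, at 36.7 ± 6.21 CPM in Dm_8h and 35.6 ± 5.38 CPM in MI_8h.

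The 5 genes with the text FAD dependent oxidoreductase were all listed as lower after injury. After larvae 3 of them were lower at 30 min and at 90 min than after O. folsomi (58.4% and 46.3% of text genes called), and none was called at 4 h or 8 h (30.5% and 23.9%). Tatro_001335-T1 had 12.7, 12.7 and 11.3 CPM in Dm_30min, against 29.2, 29.9 and 44.1 CPM in Of_30min (-1.52 ± 0.17, adjusted p = 3.868e-09). By 8 h it had 65.6, 46.9 and 53.2 CPM in Dm_8h, against 42.8, 45.6 and 45.0 CPM in Of_8h, a difference that did not pass the test. It was higher in Dm_90min than in MI_90min (0.63 ± 0.16), a call lost without MI_90min replicate 1 (0.50) or Dm_90min replicate 2 (0.48).

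Tatro_009517-T1, the single FAD-dependent oxidoreductase 2, belongs to a family known from fumarate reductase and succinate dehydrogenase, and had the second highest counts of the set. It had 739, 1013 and 823 CPM in Dm_30min, against 662, 699 and 745 CPM in Of_30min. The difference did not pass the test, and the gene was not called in any of the 10 comparisons among larvae, injury and O. folsomi that leave out the MI_30min and control levels. It stood at 414 ± 32.5 CPM in MI_30min, its lowest group, against 810 ± 148 CPM in CT0.

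The 10 genes with an FAD-binding domain held the clearest riser. Tatro_000474-T1 had 49.1, 46.1 and 56.0 CPM in Dm_30min, against 22.9, 24.4 and 26.9 CPM in Of_30min (1.01 ± 0.16, adjusted p = 2.772e-06). It had 33.5, 25.9 and 33.2 CPM in Dm_90min and 54.7, 46.0 and 39.8 CPM in MI_90min, against 17.1, 17.1 and 18.1 CPM in Of_90min. Injured libraries were all above larval ones, and larval ones all above O. folsomi ones (0.80 ± 0.17 and 1.43 ± 0.16 over O. folsomi, and -0.63 ± 0.15 for larvae over injury, not called without MI_90min replicate 1, -0.49). At 8 h it was higher by 0.58 ± 0.18 in Dm_8h than in Of_8h, which was lost without Dm_8h replicate 2 (0.48) or 3 (0.45).

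Tatro_009539-T1, of the same text, was among the 4 genes lower at all times. It had 40.9, 58.4 and 56.7 CPM in Dm_4h, against 101, 99.0 and 97.0 CPM in Of_4h, with no overlap (-0.93 ± 0.14, adjusted p = 5.79e-06). Over the 10 genes, 5 were lower and 2 higher in Dm_30min than in Of_30min (58.4% of text genes called), and 3 lower and 1 higher in Dm_8h than in Of_8h (23.9%).

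Of the 3 genes with a ferredoxin reductase-type FAD-binding domain, the electron entry site of enzymes such as NADPH-cytochrome P450 reductase and cytochrome b5 reductase, Tatro_004458-T1 was raised for hours. It had 228, 183 and 214 CPM in Dm_30min, against 121, 122 and 137 CPM in Of_30min (0.72 ± 0.12, adjusted p = 1.223e-05). It was still higher at 4 h, with 238, 207 and 190 CPM in Dm_4h and 220, 200 and 185 CPM in MI_4h, against 145, 162 and 130 CPM in Of_4h (0.54 ± 0.12 and 0.47 ± 0.12). Larval and injured libraries were above all O. folsomi libraries at 30 min (larvae), 90 min and 4 h. At 8 h the groups overlapped, at 130 ± 16.2 CPM in Dm_8h, 122 ± 17.0 CPM in MI_8h and 131 ± 5.79 CPM in Of_8h.

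Tatro_011859-T1, of the same text, changed side with time. It had 162, 156 and 180 CPM in Dm_90min, against 89.4, 115 and 107 CPM in Of_90min (0.66 ± 0.20, not called without Of_90min replicate 1, 0.58). At 8 h it had 54.4, 48.6 and 68.1 CPM in MI_8h, against 151, 142 and 176 CPM in Of_8h, and every injured library was below every O. folsomi one (-1.46 ± 0.20, adjusted p = 1.864e-06). In Dm_8h it had 134, 77.7 and 72.1 CPM, lower than in Of_8h by 0.73 ± 0.20 on the log2 scale, which was lost without Dm_8h replicate 2 (-0.61) or 3 (-0.53). It rose in the O. folsomi and control series as well, to 146 ± 23.9 CPM in CT8, against 82.3 ± 17.4 CPM in CT0.

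**Figure D4:**
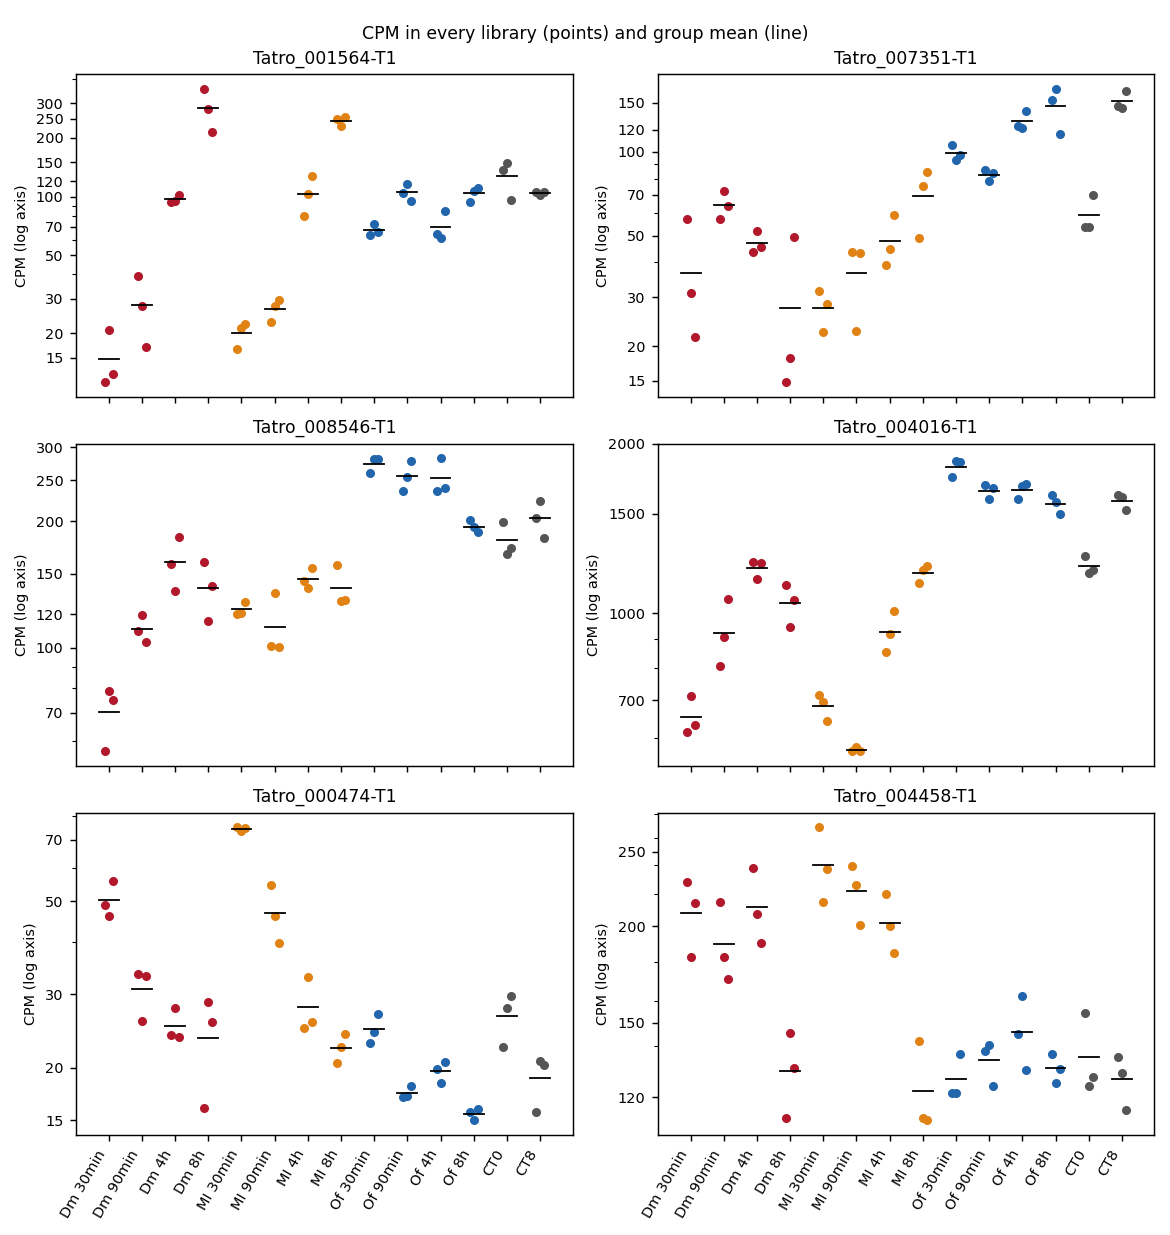
CPM on a log axis in each of the 3 libraries (points) of the 14 groups, with the group mean (line), for 6 members. Tatro_001564-T1 is lowest early and highest at 8 h after larvae and injury, and Tatro_007351-T1 is lowest in Dm_8h and MI_30min. Tatro_008546-T1 and Tatro_004016-T1 are highest in Of_30min, and Tatro_000474-T1 and Tatro_004458-T1 are raised in the early larval and injury groups.

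Tatro_005973-T1, an FAD-binding 8 gene (the domain of ferric reductases and NADPH oxidases), was lower in Dm_30min than in Of_30min (-0.37 ± 0.14, with overlapping libraries) and higher at 90 min. It had 106, 87.5 and 68.1 CPM in Dm_90min, against 65.9, 66.9 and 60.3 CPM in Of_90min. In MI_90min it had 47.5, 56.5 and 63.9 CPM, with no overlap with Dm_90min (0.68 ± 0.14 for larvae over injury, adjusted p = 0.0009004). The other FAD-binding 8 gene, Tatro_001240-T1, was called lower after larvae than after O. folsomi at 30 min, 90 min and 8 h (-0.69 ± 0.14 at 8 h). It was not called at 4 h.

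The dimerisation domain of FAD/NAD-linked reductases is known from glutathione reductase and dihydrolipoamide dehydrogenase, and its 3 genes differed from each other. Tatro_008178-T1 had 93.9, 101 and 94.5 CPM in Dm_4h, against 142, 155 and 145 CPM in Of_4h (-0.61 ± 0.11). Tatro_001519-T1 had 492, 451 and 348 CPM in Dm_8h, against 317, 328 and 338 CPM in Of_8h (0.39 ± 0.14, adjusted p = 0.03668), a call lost when any library but Dm_8h replicate 3 was left out (0.27 to 0.41). The third, Tatro_010779-T1, was scarce, at 8.09, 7.14 and 6.86 CPM in MI_4h, against 3.26, 2.63 and 2.45 CPM in Of_4h (1.41 ± 0.36).

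The 5 genes whose texts name folds beyond flavoenzymes also moved. Tatro_010862-T1 (DHS-like) had 15, 13.8 and 11.9 CPM in Dm_90min, against 36.9, 36.1 and 37.5 CPM in Of_90min (-1.40 ± 0.17, adjusted p = 1.123e-07), with no overlap. The 2 THIF-type genes went apart: Tatro_007860-T1 was lower in larval than in O. folsomi libraries at all 4 times (-0.84 ± 0.10 at 30 min, -0.34 ± 0.09 at 8 h), and Tatro_007000-T1 was higher at the first 3. Tatro_007000-T1 had 84.7, 71.4 and 86.8 CPM in Dm_90min and 100.5, 80.6 and 87.6 CPM in MI_90min, against 47.0, 42.1 and 52.6 CPM in Of_90min (0.77 ± 0.13 and 0.93 ± 0.13). Its 4 h call (0.41 ± 0.13) was lost without Dm_4h replicate 2 (0.32), Of_4h replicate 1 (0.37) or Of_4h replicate 2 (0.39).

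Injury was set against O. folsomi at the 3 times that the choice of members did not use. At 90 min 29 members were lower and 7 higher in MI_90min than in Of_90min, with 43.3% of all genes and 63.3% of text genes called. The 36 calls were 23 without MI_90min replicate 1. Of the text genes 32.0% were lower and 31.3% higher, and of all genes 21.9% and 21.4%. Of the 46 members listed as lower at 30 min, 29 were lower and 0 higher at 90 min, against 58.6% of text genes listed as lower. At 4 h 17 were lower and 9 higher (33.6% and 40.2%), and at 8 h 12 were lower and 4 higher (21.3% and 24.1%). Text genes were called lower in 20.6% and higher in 19.7% at 4 h, and in 13.6% and 10.5% at 8 h. All genes were called lower in 16.8% and higher in 16.8% at 4 h, and in 10.7% and 10.6% at 8 h. Scaled by library totals, 11 were lower and 11 higher at 4 h and 5 lower and 7 higher at 8 h, and DESeq2 called 12 lower and 2 higher at 8 h. The 16 calls at 8 h were 27 in a fit of only these groups and 10 without MI_8h replicate 2. The largest called change above O. folsomi at 4 h, among members with at least 10 CPM, was in Tatro_007292-T1. It had 32.4, 32.0 and 36.0 CPM in MI_4h, 15.6, 9.53 and 20.3 CPM in Dm_4h and 16.3, 13.4 and 14.5 CPM in Of_4h. Injured libraries of that gene were above all larval and O. folsomi libraries at 4 h (1.19 ± 0.28 over O. folsomi). Against the 27.0 ± 4.42 CPM of CT8, MI_4h was not called (0.30 ± 0.26) and Dm_4h was called lower (-0.79 ± 0.29).

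Larvae and injury differed from each other in fewer members. At 90 min 8 were higher and 3 lower in Dm_90min than in MI_90min, with 11.7% of all genes and 20.5% of text genes called. Higher were 6.73% of all genes and 11.1% of text genes, and lower were 4.99% and 9.39%. All 8 were listed as lower at 30 min after injury and all 3 as higher. Of the text genes listed as lower 20.7% were higher in Dm_90min, against 17.4% of the 46 members, and of those listed as higher 17.5% were lower, against 17.6% of the 17 members. Scaled by library totals 6 were higher and 5 lower, a fit of only these 6 libraries called 0, and 5 were called without MI_90min replicate 1. At 4 h 4 were higher and 5 lower (6.11% and 8.34%), and 0 were higher and 2 lower at 8 h (1.51% and 1.99%). Without MI_4h replicate 1 the 9 calls at 4 h were 2, without Dm_4h replicate 1 they were 3 and without Dm_4h replicate 3 they were 5. The 2 calls at 8 h were 0 without MI_8h replicate 3 or Dm_8h replicate 1, 1 without MI_8h replicate 2 or Dm_8h replicate 2, 4 without Dm_8h replicate 3 and 0 in a fit of only these groups. At 4 h 3.89% of all genes and 4.78% of text genes were higher and 2.22% and 3.56% lower. At 8 h 0.914% and 1.15% were higher and 0.598% and 0.838% lower. Scaled by library totals 1 was higher and 6 lower at 4 h, and DESeq2 called 1 higher and 2 lower at 8 h. Apart from the genes above, Tatro_008154-T1 (FAD/NAD(P)-binding) had 15.9, 17.4 and 11.1 CPM in Dm_90min, 24.4, 25.5 and 28.3 CPM in MI_90min and 24.4, 35.8 and 33.2 CPM in Of_90min. Larval libraries were below both other groups (-0.74 ± 0.18 against injury).

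The comparisons with controls share their control libraries with the table that chose the members, and share them with each other. Those below, the O. folsomi and control comparisons included, are set beside the share over all genes only. In the comparisons above, genes with a text were called more often than all genes. The counts against controls are therefore not read as a trait of the members. Against CT0, 7 members were higher and 28 lower in Dm_30min (39.5% of all genes called), 9 higher and 15 lower in Dm_90min (33.9%) and 7 higher and 22 lower in MI_90min (39.5%). Against CT8, 4 were higher and 21 lower in Dm_4h (20.5%), 5 higher and 17 lower in Dm_8h (24.9%), 3 higher and 17 lower in MI_4h (24.4%) and 5 higher and 12 lower in MI_8h (22.5%). Scaled by library totals the counts were 5 higher and 17 lower in Dm_90min and 7 higher and 6 lower in MI_8h, and DESeq2 called 3 higher and 13 lower in MI_8h. With the other control 54 members were called in Dm_30min and 10 in Dm_4h, and with only the groups compared 9 in Dm_90min, 14 in Dm_8h and 29 in MI_8h. The calls in MI_4h were 13 without CT8 replicate 1, and those in MI_8h were 10 without CT8 replicate 2 and 8 without MI_8h replicate 2. Tatro_001564-T1 showed the largest fall with at least 10 CPM in Dm_30min, at 14.8 ± 5.26 CPM against 127 ± 27.4 CPM in CT0 (-3.08 ± 0.22), and the largest rise in Dm_8h, at 283 ± 70.9 CPM against 104 ± 1.96 CPM in CT8 (1.43 ± 0.18).

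Between O. folsomi and CT0 17.5% of members were called at 30 min and 17.5% at 90 min, each time counted separately. Control libraries had a part in choosing the members, so these shares are a description. In Of_30min 6 were higher and 5 lower than in CT0 (9.9% of all genes called), and in Of_90min 9 were higher and 2 lower (5.47%). Scaled by library totals 3 were higher and 10 lower in Of_30min, where the median of all genes moved by -0.193. Tatro_007292-T1 had 7.10, 5.54 and 11.8 CPM in Of_30min, against 33.1, 42.3 and 22.1 CPM in CT0, with no overlap (-1.85 ± 0.35, adjusted p = 0.0006621). In Of_4h and Of_8h no member was called against CT8 in the fit of all groups by edgeR or by DESeq2, with 0.207% and 0.0% of all genes called by edgeR. A fit of only the groups compared called 10 members in Of_4h, and with CT0 as the control 15 were called in Of_4h, 13 in Of_8h and 0 in Of_90min. The 11 calls in Of_90min were 6 without CT0 replicate 3. At an unadjusted p under 0.05 there were 10 members and 938 genes in all at 4 h, and 0 members and 118 genes at 8 h.

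The controls differed from each other too. In CT8 9 members were higher and 3 lower than in CT0 (8.41% of all genes called), and 10 higher and 1 lower by DESeq2. Which control the authors' tables used is not given in the sources used here. Tatro_002945-T1 had 507, 441 and 547 CPM in CT8, against 253, 194 and 223 CPM in CT0 (1.14 ± 0.19). With the other control in place of the one used here, 5 of the named changes against a control turned their direction.

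The 10 comparisons among larvae, injury and O. folsomi without MI_30min and the controls share groups with one another. Over them 5 members (7.94%) were never called, against 13.0% of text genes and 25.5% of all genes, and 1 (1.59%) was called in 9, Tatro_004016-T1, against 0.628% of text genes and 0.272% of all genes called in at least 9. The 5 were Tatro_001900-T1, Tatro_002626-T1, Tatro_006746-T1, Tatro_007044-T1 and Tatro_009517-T1. Neighbouring identifiers occurred in 4 pairs of members, at most 4 apart, but the files give no coordinates. One such pair, Tatro_005885-T1 and Tatro_005887-T1, was lower together at 30 min after larvae than after O. folsomi (-1.06 ± 0.23 and -0.94 ± 0.17). The authors list the pair in opposite directions at 30 min after injury (log2 fold changes 0.97 and -0.80). In Dm_8h against CT8 the genes also parted (-0.71 ± 0.23 and 0.57 ± 0.16).

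A pair of lists of other redox genes with a product text was set beside the members. Both hold only genes of the 30 min injury table. The list of other flavoenzymes has 24 genes, among them acyl-CoA dehydrogenases, amine oxidases and berberine-like oxidases, but also 2 copper amine oxidases and a riboflavin kinase, which are not flavoenzymes in the strict sense. In Dm_30min 8 of the 24 were higher and 10 lower than in Of_30min (41.4% of all genes and 58.4% of text genes called), with a median of -0.17. In Dm_90min 6 were higher and 9 lower than in Of_90min, where 632 of 2865 text genes were lower. Examples of large rises were named after their values were seen. The amine oxidase Tatro_008024-T1 stood at 200.4 ± 48.4 CPM in Dm_30min against 51.3 ± 5.12 CPM in Of_30min (1.97 ± 0.15). The berberine-like Tatro_002474-T1 stood at 113 ± 63.5 CPM against 7.42 ± 2.53 CPM in the same groups (3.84 ± 0.42). The 10 genes that were lower in Dm_30min are not named, so these examples do not stand for the list.

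The antioxidant and thiol redox list has 35 genes (catalases, superoxide dismutase, thioredoxins, glutaredoxin and glutathione enzymes). In Dm_30min 4 were higher and 13 lower than in Of_30min, with a median of -0.26, where 817 of 2865 text genes were lower. In Dm_90min 15 were higher and 0 lower than in MI_90min, with a median of 0.36, where 6.73% of all genes and 11.1% of text genes were called higher. Against Of_90min the same list had 5 higher and 6 lower in Dm_90min (median 0.04) and 3 higher and 16 lower in MI_90min (median -0.45). Between Dm_4h and MI_4h 3 were higher and 0 lower, and between Dm_8h and MI_8h none was called. The shares of text genes called higher and lower in each of these comparisons are given with the members above. The list counts are from the fit of all groups, and a fit of only Dm_90min and MI_90min called no member. Among those 15, named after their values were seen, were Tatro_008157-T1 with a catalase active site, an enzyme site that breaks down hydrogen peroxide, at 457 ± 58.3 CPM in Dm_90min against 275 ± 16.9 CPM in MI_90min (0.73 ± 0.12), and the glutathione S-transferase Tatro_010415-T1, at 231 ± 84.2 CPM against 128.5 ± 26.1 CPM (0.81 ± 0.14). In Dm_90min the SD of several of these genes was large, and replicate 3 of that group was among the 4 shallowest libraries, whose part in these list counts was not tested.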

How the data were processed

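RNA of T. atroviride mycelium was sequenced in 42 libraries of 14 groups (TRIzol extraction and a stranded total RNA kit, per the labels' protocols). HISAT2 2.1.0, HTSeq 0.14.1 and FastQC 0.11.6 were used, per the submitters' processing notes. Neither the build nor the annotation nor the strandedness of the counting was stated in the labels or files used here. The authors deposited a table of raw counts per gene model and tables of their own comparisons with log2 fold changes, p-values and false discovery rates, whose control is not named. The F statistic in those tables, a score per gene made by the authors per the file headers, was not used. The deposited injury table for 30 min gave the product texts, and values from it are the authors'.

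The 12018 gene models were reduced to 11786 genes, since the models of 204 genes had identical counts. Total counts ran from 1152096 to 5398093 per library, and their number limits the precision of scarce genes. Counts were tested with edgeR 4.0.16 (TMM scaling, quasi-likelihood test, all 14 groups in a single fit, Benjamini-Hochberg adjustment over the 9193 genes left by the filter on low counts, threshold 0.05) in R 4.3.3 with limma 3.58.1, after the code was tested on simulated data. Tables and figures were made with Python 3.11.15, pandas 2.3.3 and matplotlib 3.10.9. DESeq2 1.42.0, scaling by library totals, no filter, a fit of only the groups compared, a replicate block, the other control, leaving out the 4 shallowest libraries and leaving out each library in turn were the alternatives. By the cutoff used, the same replicate numbers gave no sign of shared samples. In no comparison were all 3 correlations of same-numbered deviations over 0.1. With 3 libraries a group this cannot exclude pairing or a shared batch.

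The members and both gene lists were chosen with earlier results of these data known. Members were grouped by product text. Named by rule were up to 4 of the largest called rises and falls per comparison without controls, and up to 3 per comparison with them, among genes with at least 10 CPM in the higher group, as well as the 3 genes with the highest mean CPM, the largest and smallest deposited false discovery rate and any member that failed the filter. Shared calls and their shares over other genes, the split by direction after injury, the counts of calls per member, the floor for the gene without counts and the examples from both lists were chosen after the values were seen, as was the narrowed word pattern for acyl-CoA enzymes. No sequences are shown because the reference table matched 0 of the members.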

Additional observations from a re-analysis of the deposited data

Results flagged for a closer look

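For 16 of the members named by the rule, the larval minus O. folsomi difference at 30 min departed from that at 8 h in edgeR's quasi-likelihood test of the difference between times (adjusted over all genes). Each value is the log2 difference at 30 min minus that at 8 h, from 3 libraries a group. The largest shift was -3.64 ± 0.29 (SE, adjusted p = 4.998e-11) in Tatro_001564-T1, which was lower at 30 min (-2.20) and higher at 8 h (1.44).

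A further 10 of these members had a more negative difference at 30 min. The shift was -2.29 in Tatro_002163-T1 and -1.84 in Tatro_001335-T1. It was -1.64 in Tatro_008779-T1, -1.57 in Tatro_006664-T1 and -1.50 in Tatro_008546-T1. It was -1.42 in Tatro_010862-T1, -1.35 in Tatro_005887-T1 and -0.89 in Tatro_004016-T1. The smallest were -0.60 in Tatro_005973-T1 and -0.53 in Tatro_001519-T1.

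The other 5 had a more positive difference at 30 min. The shift was 1.14 in Tatro_011859-T1, 0.81 in Tatro_002290-T1 and 0.74 in Tatro_004458-T1. It was 0.65 in Tatro_004093-T1 and 0.59 in Tatro_007000-T1. Of all 63 members 26 passed this test, and among all genes 21.9% did. The share of text genes is given with the members above. The naming rule took the largest called changes, those between larvae and O. folsomi at 30 min and 8 h included. The number of named members that passed is therefore a description and is not set beside these shares.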

How the results depend on the processing

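The counts of members called stayed within 1.5 times of the reported ones in all 23 comparisons with DESeq2, with library totals, without the filter and with the replicate block (37 with the block for larvae against O. folsomi at 30 min). The balance of lower and higher calls was less stable with library totals, as given above. Fewer members were lower and more higher in MI_4h against Of_4h, MI_8h against Of_8h and MI_8h against CT8. In both MI_8h comparisons higher calls then outnumbered lower ones. The balance moved the other way in Of_30min and Dm_90min against CT0. In Dm_30min against Of_30min lower calls still outnumbered higher ones. The replicate block lost 2 of 127 named values. Over all members and comparisons it lost 9 of 442 calls and gained 6. With only the groups compared, 8 members were called in Dm_8h against Of_8h (21 reported), 27 in MI_8h against Of_8h (16), 0 in Dm_90min against MI_90min (11), 0 in Dm_8h against MI_8h (2), 9 in Dm_90min against CT0 (24), 14 in Dm_8h against CT8 (22), 29 in MI_8h against CT8 (17) and 10 in Of_4h against CT8 (0). Without the 4 shallowest libraries 1 was called in Dm_8h against MI_8h.

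With the other control, 54 members were called in Dm_30min (35 reported), 10 in Dm_4h (25), 0 in Of_90min (11), 15 in Of_4h (0) and 13 in Of_8h (0). The direction turned for Tatro_011859-T1 in Dm_30min (-0.20, reported 0.62), for Tatro_002945-T1 in Dm_8h (0.37, reported -0.77) and in Of_90min (-0.32, reported 0.82), for Tatro_007351-T1 in MI_8h (0.22, reported -1.12) and for Tatro_008178-T1 in Of_30min (-0.14, reported 0.61). The cause was not tested.

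Leaving out 1 library at a time gave 2 to 8 calls in Dm_4h against MI_4h (2 without MI_4h replicate 1, 3 without Dm_4h replicate 1, 5 without Dm_4h replicate 3), 0 to 4 in Dm_8h against MI_8h (0 without MI_8h replicate 3 or Dm_8h replicate 1, 1 without MI_8h replicate 2 or Dm_8h replicate 2, 4 without Dm_8h replicate 3), 11 to 19 in Dm_8h against Of_8h (11 without Dm_8h replicate 2), 5 to 14 in Dm_90min against MI_90min (5 without MI_90min replicate 1), 13 to 19 in MI_4h against CT8 (13 without CT8 replicate 1), 8 to 14 in MI_8h against CT8 (8 without MI_8h replicate 2, 10 without CT8 replicate 2), 10 to 13 in MI_8h against Of_8h (10 without MI_8h replicate 2), 23 to 34 in MI_90min against Of_90min (23 without MI_90min replicate 1) and 6 to 14 in Of_90min against CT0 (6 without CT0 replicate 3). Of 762 named values refitted this way 663 kept their call and 99 lost it. Other alternatives lost 3 named values (DESeq2), 6 (library totals), 2 (no filter), 16 (only the groups compared), 16 (other control) and 7 (without the 4 shallowest libraries).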
